A study of Mus musculus with 15 samples.

Results

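The genes described here encode the molecules by which blood leukocytes hold on to a vessel wall and leave the circulation. They are Icam1, Icam2 and Vcam1, the selectins Sele and Selp, the selectin ligand Selplg, and the integrin subunits Itgb2 and Itgam. The 8 genes were taken by name, through the Ensembl identifiers of GENCODE, from the 46679 genes in the deposited tables. RNA was sequenced from whole tissue of 15 C57BL/6 mice, in 5 groups of 3: naïve brain and end-stage brain tumors of the lines CT2A, GL261, 005 and Mut3. Mice were 6 to 8 weeks old when tumor cells were placed in the brain, at 100000 cells of CT2A, GL261 or 005 and 500000 cells of Mut3, and at endpoint they were perfused with PBS before the tumor was taken. CT2A and GL261 came from methylcholanthrene-induced tumors (CT2A has wild-type p53, and GL261 carries K-ras and p53 mutations). 005 came from a tumor driven by activated H-ras and AKT in p53+/- mice, and Mut3 from a tumor with Nf1 and p53 inactivated. Each group of tumors came from a single cultured line, and the lines express GFP and firefly luciferase, which naïve brain does not carry. The study named GL261 and 005 immune-active and CT2A and Mut3 immunologically inert on the basis of these same libraries, so that a difference between those classes is not independent evidence of its direction.

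Leukocytes leave the blood in steps. Selectins on activated endothelium (E-selectin, from Sele, and P-selectin, from Selp) catch sugar-decorated ligands on leukocytes, of which PSGL-1, the product of Selplg, is the main one, and the cells roll. Integrins then hold them fast. The beta2 chain (CD18, from Itgb2) pairs with an alpha chain, such as CD11b from Itgam, to bind ICAM-1 and ICAM-2, whereas VCAM-1 is bound by the alpha4 integrins. Cytokines such as TNF and IL-1 are known to raise ICAM-1, VCAM-1 and E-selectin on endothelium through NF-kB, and interferon-gamma raises ICAM-1. In brain, Itgam and Itgb2 mark microglia and infiltrating myeloid cells, and ICAM-1 and VCAM-1 are also made by astrocytes, myeloid cells and tumor cells.

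The genes lie on 7 chromosomes in GENCODE release M21 (GRCm38, the assembly that mm10 in the submitters' processing notes names). Icam1 is at chr9:21015985-21028817 on the plus strand, Icam2 at chr11:106377656-106388075 on the minus strand and Vcam1 at chr3:116109949-116129688 on the minus strand. Sele (chr1:164048234-164057677) and Selp (chr1:164115264-164150026) are neighbours on the plus strand. Selplg is at chr5:113818536-113832644 on the minus strand, Itgb2 at chr10:77530252-77565708 on the plus strand and Itgam at chr7:128062640-128118491 on the plus strand. All 8 are protein-coding, and the counts are over whole genes. Itgam shares its span with the protein-coding gene Gm49368 on the same strand, which was given 189.1 counts over all 15 samples, so the split of reads between this pair is uncertain. Antisense genes cross Icam1, Vcam1 and Selp, and those listed in the files had at most 3 counts over all samples.

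Upstream sequences of the RefSeq gene start (250 bases, GRCm38.p6) were matched for 4 of the 8 genes. Of these, 3 are shown, chosen with the results known: 2 genes with called changes and Sele, which was hardly detected. Capitals mark matches on either strand to an NF-kB motif (GGANNTTCC), a STAT site (TTCNNNGAA), an AP-1 site (TGANTCA) or the purine box bound by the myeloid factor PU.1 (GAGGAA). The sequences are those of Icam1 (chr9:21015690-21015939), Sele (chr1:164047984-164048233) and Itgam (chr7:128062390-128062639), all on the plus strand.
Icam1: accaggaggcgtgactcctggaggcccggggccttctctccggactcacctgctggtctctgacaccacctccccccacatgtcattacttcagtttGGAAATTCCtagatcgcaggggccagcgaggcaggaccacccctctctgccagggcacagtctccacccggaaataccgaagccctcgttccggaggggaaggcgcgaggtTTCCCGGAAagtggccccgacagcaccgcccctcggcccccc
Sele: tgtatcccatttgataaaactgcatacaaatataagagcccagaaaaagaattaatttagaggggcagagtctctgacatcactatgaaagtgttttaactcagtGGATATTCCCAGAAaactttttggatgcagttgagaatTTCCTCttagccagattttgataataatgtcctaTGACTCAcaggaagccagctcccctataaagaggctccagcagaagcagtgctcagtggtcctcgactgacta
Itgam: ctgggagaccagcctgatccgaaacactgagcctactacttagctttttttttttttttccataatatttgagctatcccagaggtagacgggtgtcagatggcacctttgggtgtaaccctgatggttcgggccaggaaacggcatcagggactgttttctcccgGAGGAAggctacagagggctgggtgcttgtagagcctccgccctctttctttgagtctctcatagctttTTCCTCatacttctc
The Icam1 window held an NF-kB match from -153 to -145 (counted from the start, with -1 the last base before it) and a STAT match from -42 to -34. Sele held an NF-kB match from -145 to -137 that overlaps a STAT match from -140 to -132, an AP-1 match from -73 to -67 and a purine box on the opposite strand from -107 to -102. The Itgam window had purine boxes from -84 to -79 and, on the opposite strand, from -15 to -10. The window not shown, that of Selp, held only an AP-1 match, from -139 to -133. Of 27025 promoter windows of this length, 3.56% held the NF-kB letters, 7.18% the STAT letters, 6.87% the AP-1 letters and 23.1% the purine box. These are matches of letters and not measured binding sites.

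Total counts were 3105119 to 5161132 in naïve brain and 5380395 to 13130158 in the tumors, so that 3 counts, the smallest level taken as detected, were worth 0.214 to 0.811 CPM (counts as a rate of the library total, normalized by TMM). This floor covers counting error only. The summed CPM of 6 neuronal genes was 3380 to 5428 in naïve brain, 2973 in the highest 005 sample (137.1 in the lowest) and at most 1525 in the other tumors, so the samples differ in how much brain tissue they hold. The 11 pan-leukocyte genes (such as Ptprc, which encodes CD45) all had counts in every group. Their mean log2 CPM was higher than in naïve brain by 1.35 in CT2A, 1.84 in GL261 and 2.36 in 005, with no overlap of the samples. In Mut3 the difference was -0.16, with overlap. Its genes went both ways there, from -3.14 for Coro1a (called lower) to 1.46 for Ptprc (not called). The 12 endothelial genes (such as Cdh5) differed from naïve brain by -0.08 in CT2A to 0.60 in 005, and the samples overlapped in each comparison. In whole tissue, fewer cells of a type and less RNA per cell cannot be told apart.

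Of the 8 genes, 6 passed the filter on low counts and were tested, and Sele and Selp did not pass it. A call needed a Benjamini-Hochberg adjusted p below 0.05 over the 17481 genes that entered the quasi-likelihood test of edgeR, together with a log2 fold change of 1 or more in size. All 6 tested genes differed among the 5 groups, as did 52.1% of all genes tested. Against naïve brain, 3 of 6 were called in CT2A (all higher, with 39.2% of all genes called in either direction and 19.0% higher), 4 in GL261 (all higher, against 22.4% and 14.6%), 3 in 005 (all higher, against 12.7% and 11.6%) and 3 in Mut3 (1 higher and 2 lower, against 37.8% in all, 17.9% higher and 19.8% lower). The median log2 fold change of the 6 was 1.60 in CT2A, 2.14 in GL261 and 2.00 in 005, where the median of all genes was -0.04, -0.08 and 0.01, and in Mut3 it was 0.24, where that of all genes was 0.11. The 4 comparisons share the naïve samples. Samples of a tumor and of naïve brain did not overlap for 56.3% of all genes in CT2A and 47.8% in GL261, 27.5% in 005 and 53.3% in Mut3, and the overlaps given per gene are read against these shares. Without naïve replicate 1, 2 of the 6 were called in GL261.

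**Figure D1:**
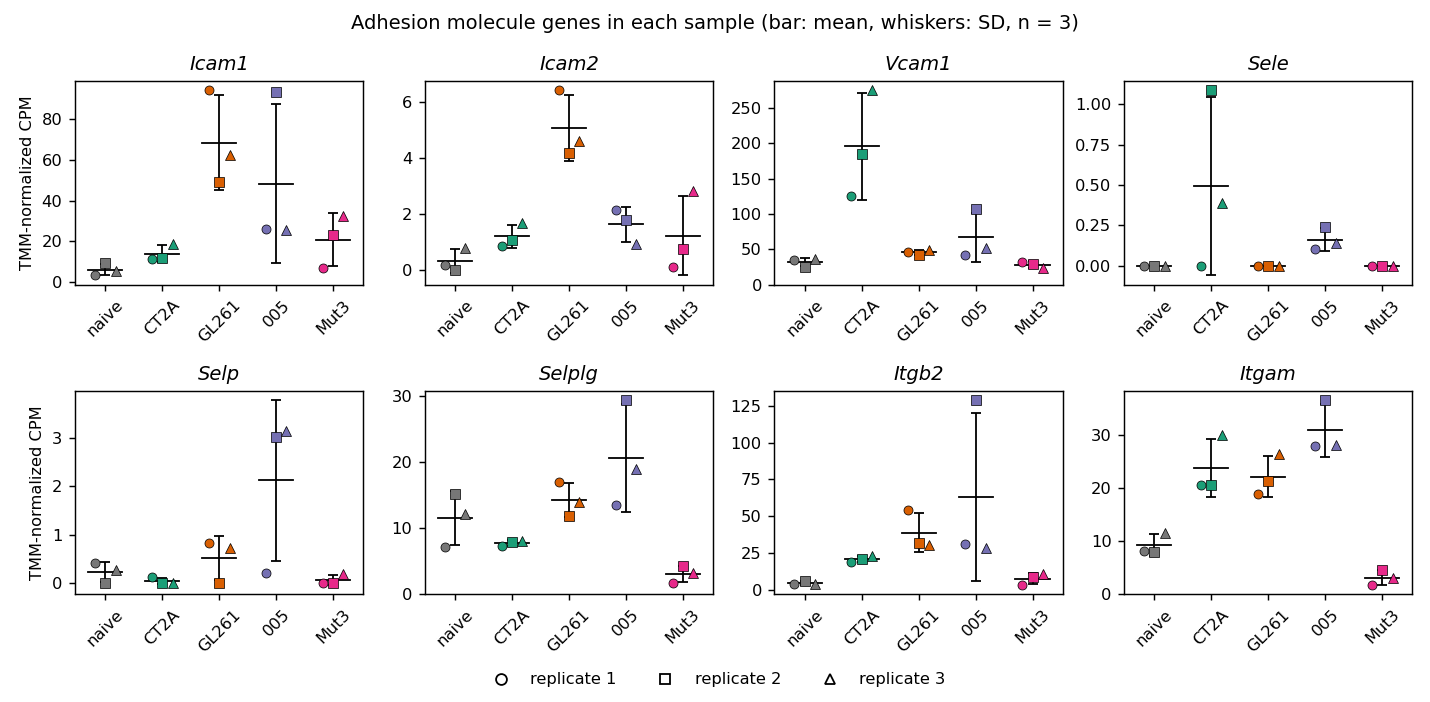
TMM-normalized CPM (y axis, 1 scale per gene) of the 8 adhesion molecule genes in each of the 15 samples, by group (x axis); horizontal bars are means and whiskers SD (n = 3), and symbols give the replicate number. Vcam1 stood highest in CT2A (125.9 to 275.4 CPM), Icam1 and Icam2 in GL261, and Selplg and Itgam were lowest in Mut3.

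Icam1, the inducible ligand of the beta2 integrins, was highest in GL261 and in 005 replicate 2. Its level was 3.67, 9.22 and 5.41 CPM in naïve replicates 1 to 3, 11.5, 11.6 and 18.9 in CT2A, 94.3, 49.0 and 62.6 in GL261, 25.9, 93.7 and 25.7 in 005, and 6.71, 23.0 and 32.7 in Mut3. All samples of CT2A, GL261 and 005 were above all naïve samples, and those of Mut3 overlapped them. The log2 fold change against naïve brain was 3.49 ± 0.65 (SE) in GL261 (edgeR adjusted p = 0.00244) and 2.99 ± 0.64 in 005 (edgeR adjusted p = 0.00767). Without 005 replicate 2 the value in 005 was 2.09 (edgeR adjusted p = 0.0417), and the other samples of 005 lay within the range of Mut3. In Mut3 it was 1.78 ± 0.62 (edgeR adjusted p = 0.0339), a call that was lost without naïve replicate 1 or 3 or Mut3 replicate 2 or 3 (edgeR adjusted p = 0.0726 to 0.148) and was 2.4 without naïve replicate 2. In CT2A the difference of 1.20 ± 0.62 did not pass the test (edgeR adjusted p = 0.129). With only the CT2A and naïve samples in the fit it was 1.28 (edgeR adjusted p = 0.0391), and with only the 005 and naïve samples the value in 005 was 3.05 (edgeR adjusted p = 0.0575).

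Icam2, which endothelial cells and platelets carry without induction, was low in every group. It had 0.98, 0 and 2.93 counts in naïve brain, and its CPM was 0.855 to 1.68 in CT2A, 6.43, 4.20 and 4.61 in GL261, 0.926 to 2.16 in 005 and 0.112 to 2.81 in Mut3. The GL261 samples stood above all others. The log2 fold change in GL261 against naïve brain was 3.90 ± 1.04 (edgeR adjusted p = 0.0173), and it was not called without naïve replicate 1 (edgeR adjusted p = 0.0685) or 2 (edgeR adjusted p = 0.0535), while without naïve replicate 3 it was 5.34. Since the rounded counts of naïve brain sum to 4, the ratio of GL261 to naïve brain was 15.6 with an exact 95% counting interval of 5.88 to 58.3. The differences in CT2A, 005 and Mut3 were 1.84, 2.26 and 1.89 on the log2 scale and did not pass the test.

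Vcam1, the endothelial ligand of alpha4 integrins, followed another order of groups. Its level was 34.7, 25.2 and 36.2 CPM in naïve brain and 126, 185 and 275 CPM in CT2A. GL261 had 46.0, 42.0 and 49.3 CPM, 005 had 41.5, 107 and 52.4, and Mut3 had 32.3, 29.3 and 23.8. The lowest CT2A sample was above every other sample of the series. In CT2A, Vcam1 rose by 2.61 ± 0.38 on the log2 scale (edgeR adjusted p = 4.18e-04), and this call held in all of the alternatives run, including each replicate left out. The differences from naïve brain in GL261 (0.51) and Mut3 (-0.17) did not pass the test. In 005 the difference was 1.06 ± 0.36 (edgeR adjusted p = 0.0679), and it was called without 005 replicate 1 (1.32, edgeR adjusted p = 0.0462) or 3 (1.14, edgeR adjusted p = 0.0295) and by DESeq2 (adjusted p = 0.0400).

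The endothelial selectins were close to the floor. Sele was listed at 0 in all samples of naïve brain, GL261 and Mut3, at 0.99 to 2.03 counts in 005, and at 0, 6.82 and 2.95 counts in CT2A. Selp, which is stored in endothelial cells and platelets, had at most 6.31 counts in naïve brain, CT2A, GL261 and Mut3. In 005 it had 2.19 counts in replicate 1, 25.3 in replicate 2 and 44.2 in replicate 3, which is 0.206, 3.02 and 3.13 CPM. Thus 2 of the 3 samples of 005 held the only levels of Selp above the floors given, apart from GL261 replicates 1 and 3 (4.10 and 6.31 counts). Sele and Selp entered no test after the filter. Selp was tested where the filter was dropped or eased by a smaller group, and between the classes it was then called higher in GL261 and 005 by DESeq2 (4.17, adjusted p = 0.00812) and by edgeR with no filter (3.90, adjusted p = 0.00965). These fitted values depend on the prior count, since most samples are near 0. At these depths a difference between groups other than 005 was not detectable. The summed CPM of 6 platelet genes was 54.2 to 110.6 in 005 and 94.1 to 289.7 in naïve brain, and its part in the Selp counts was not tested.

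Selplg, which encodes the P-selectin ligand PSGL-1, was the one gene of the leukocyte side that no tumor raised past the test. It had 7.14, 15.2 and 12.2 CPM in naïve brain, 7.33, 7.92 and 8.14 in CT2A, 17.0, 11.8 and 13.95 in GL261, 13.5, 29.5 and 19.0 in 005, and 1.79, 4.28 and 3.25 in Mut3. All Mut3 samples were below every other sample of the series. Selplg fell by 1.88 on the log2 scale in Mut3 (SE 0.42, edgeR adjusted p = 0.00306). The differences of -0.56 in CT2A, 0.31 in GL261 and 0.85 in 005 did not pass the test, although the pan-leukocyte genes were higher in those tumors. With limma on log2(TPM + 0.1), Selplg was lower in CT2A (-1.46, limma adjusted p = 0.0137), where the median of all genes on that scale was -0.77.

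Itgb2, the beta chain shared by all CD11/CD18 integrins, rose in 3 of the 4 tumors. It had 4.28, 6.23 and 3.79 CPM in naïve brain, 19.1, 20.7 and 23.0 in CT2A, 54.1, 31.7 and 30.7 in GL261, 31.3, 129 and 28.5 in 005, and 3.24, 8.81 and 10.6 in Mut3. Every sample of CT2A, GL261 and 005 was above naïve brain, and Mut3 overlapped it. The log2 fold change was 2.13 ± 0.58 in CT2A (edgeR adjusted p = 0.0111), 3.02 ± 0.60 in GL261 (edgeR adjusted p = 0.00349) and 3.72 ± 0.61 in 005 (edgeR adjusted p = 0.00209). Without 005 replicate 2, the highest sample, the value in 005 was 2.65 (edgeR adjusted p = 0.0051). In Mut3 it was 0.66 ± 0.58 (edgeR adjusted p = 0.377). On log2(TPM + 0.1), CT2A was not called (1.08, limma adjusted p = 0.106).

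Itgam, the CD11b chain of myeloid cells, rose in the same 3 tumors and fell in Mut3. Its level was 8.16, 7.97 and 11.6 CPM in naïve brain, 20.6, 20.7 and 30.1 in CT2A, 18.9, 21.3 and 26.5 in GL261, 28.0, 36.7 and 28.1 in 005, and 1.79, 4.53 and 3.08 in Mut3. No tumor sample overlapped naïve brain. The log2 fold change was 1.36 ± 0.35 in CT2A (edgeR adjusted p = 0.00759), 1.27 ± 0.35 in GL261 (edgeR adjusted p = 0.0193) and 1.74 ± 0.35 in 005 (edgeR adjusted p = 0.00536), and Itgam fell by 1.56 in Mut3 (SE 0.36, edgeR adjusted p = 0.00384). The call in GL261 was lost without naïve replicate 1 (edgeR adjusted p = 0.0701) or GL261 replicate 3 (edgeR adjusted p = 0.0859), and that in 005 was lost with only the 005 and naïve samples in the fit (1.81, edgeR adjusted p = 0.0529). On log2(TPM + 0.1), where the median of all genes was -0.77 in CT2A and -0.69 in GL261, Itgam differed by 0.34 in CT2A and 0.42 in GL261 and was not called in either. Since Itgam was at most 2.22 TPM, a pseudocount of 1 took its log2 fold change below the threshold of 1 also in 005 (0.63), in Mut3 (-0.63) and between the classes (0.65). The 8 microglial genes had summed CPM of 83.9 to 110.5 in Mut3 and 223.8 to 273.9 in naïve brain, and 5 of the 8 were called lower in Mut3, among them P2ry12 (-3.61) and Cx3cr1 (-2.37). The part of microglia in the low Itgam and Selplg of Mut3 was not tested.

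Between the classes of the study, GL261 and 005 against CT2A and Mut3, 4 of the 6 tested genes were called higher and none lower, where 16.9% of all genes were called and 12.6% were higher. Selplg was higher by 1.80 ± 0.29 on the log2 scale (edgeR adjusted p = 0.00165), Itgam by 1.60 ± 0.24 (edgeR adjusted p = 0.00136), Itgb2 by 1.97 ± 0.39 (edgeR adjusted p = 0.00483) and Icam1 by 1.75 ± 0.42 (edgeR adjusted p = 0.0116). These 4 calls held with each replicate left out in turn, which does not leave out a whole line. For Itgam, CT2A did not pass the test against GL261 (0.10, edgeR adjusted p = 0.886) or 005 (-0.38, edgeR adjusted p = 0.487). Nor did CT2A pass against GL261 or 005 for Selplg (edgeR adjusted p = 0.199 and 0.0613) or Itgb2 (edgeR adjusted p = 0.330 and 0.105). Of the inert lines, only Mut3 was called below GL261 and 005 in Itgam, Selplg and Itgb2. For Icam1, CT2A was called below GL261 and not below 005 (edgeR adjusted p = 0.0982). Mut3 was called below neither GL261 (edgeR adjusted p = 0.0584) nor 005 (edgeR adjusted p = 0.156) in Icam1. The samples of the classes did not overlap for Selplg and Itgb2, where 3.91% of all genes did not overlap. Icam2 (1.21 ± 0.60, edgeR adjusted p = 0.161) and Vcam1 (-0.43 ± 0.25, edgeR adjusted p = 0.233) did not pass the test, and Icam2 was called without Mut3 replicate 3 (2.03, edgeR adjusted p = 0.0387). Over the same samples, 10 of the 11 pan-leukocyte genes, all 6 neuronal genes and 5 of the 8 microglial genes were called higher, so the classes differ in leukocyte and in brain RNA as well, and the part of each in these 4 calls was not tested beyond the scaling to leukocyte genes given further on.

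Within the inert class lines differed in these genes, and within the active class no difference was called. Over the 6 pairs of tumors, 13 differences of the 6 tested genes were called. CT2A and Mut3, both in the inert class, differed in Vcam1 (2.78 ± 0.38, edgeR adjusted p = 4.03e-04), Itgam (2.92 ± 0.37, edgeR adjusted p = 2.14e-04) and Selplg (1.32 ± 0.41, edgeR adjusted p = 0.0456), all higher in CT2A, where 12.8% of all genes were called and 6.61% were higher. The Selplg call was lost in several of the fits that left out a replicate (without any CT2A replicate, naïve replicate 3, GL261 replicate 2 or 3, or Mut3 replicate 1 or 3; edgeR adjusted p up to 0.132). GL261 and 005, both in the active class, had no called difference in the 6 genes, where 2.62% of all genes were called, and their samples overlapped in Icam1, Vcam1, Selplg and Itgb2. The samples did not overlap for Icam2 (higher in GL261) and Itgam (higher in 005), as for 18.2% of all genes. In edgeR none of the 6 had an unadjusted p under 0.05 between GL261 and 005, and DESeq2 called 0 as well.

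Mut3 was below both active lines in the leukocyte genes. Against GL261 it was lower in Selplg, Itgb2 and Itgam (2.19, 2.36 and 2.83 on the log2 scale, with 17.2% of all genes called and 11.1% lower in Mut3), and against 005 in Vcam1, Selplg, Itgb2 and Itgam (1.23, 2.73, 3.05 and 3.30, with 19.8% called and 14.0% lower in Mut3). Without 005 replicate 2 the Itgb2 difference between 005 and Mut3 was 1.99 (edgeR adjusted p = 0.00753). The Vcam1 difference between 005 and Mut3 was lost without 005 replicate 2 (0.72, edgeR adjusted p = 0.149) or any Mut3 replicate (edgeR adjusted p = 0.0552 to 0.0764). CT2A was above GL261 in Vcam1 (2.09 ± 0.37, edgeR adjusted p = 0.00380) and below it in Icam1 (-2.29 ± 0.61, edgeR adjusted p = 0.0327), where 7.77% of all genes were called, 4.15% higher and 3.62% lower in CT2A. The Icam1 call was lost when any replicate of CT2A or GL261 was left out (edgeR adjusted p = 0.0511 to 0.127). CT2A was also above 005 in Vcam1 (1.55 ± 0.36, edgeR adjusted p = 0.0307, with 4.11% of all genes called and 2.12% higher), a call lost without CT2A replicate 2 or 3 or 005 replicate 1 or 3 (edgeR adjusted p = 0.0586 to 0.158).

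The endothelial genes served as a second scale for the vessel-side genes. When each library was scaled so that the mean log2 CPM of the 12 endothelial genes was equal, 6 calls were made over Icam1, Icam2 and Vcam1 in 5 comparisons, as many as without this scaling. Vcam1 in CT2A was 2.59 ± 0.48 higher than in naïve brain (edgeR adjusted p = 0.00153, with 32.7% of all genes called and 16.5% higher), close to the 2.61 on the TMM scale. Icam1 was higher by 3.40 ± 0.56 in GL261 (edgeR adjusted p = 8.97e-04, with 13.9% called and 9.27% higher), by 2.33 ± 0.54 in 005 (edgeR adjusted p = 0.0202, with 5.26% called and 4.21% higher), by 1.56 ± 0.53 in Mut3 (edgeR adjusted p = 0.0341, with 32.0% called and 11.1% higher) and by 1.39 ± 0.36 between the classes (edgeR adjusted p = 0.0193, with 15.5% called and 8.07% higher). Icam2 was called in GL261 (3.64 ± 1.09, edgeR adjusted p = 0.0380).

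Not all of these calls were firm. The Icam2 call was lost without naïve replicate 1 or 2 or any GL261 replicate (edgeR adjusted p = 0.0575 to 0.119) and was 5.24 without naïve replicate 3, and that of Icam1 in Mut3 without any naïve replicate or Mut3 replicate 2 or 3 (edgeR adjusted p = 0.0575 to 0.212). Icam1 in 005 was not called without naïve replicate 1 or 3 or 005 replicate 2 (edgeR adjusted p = 0.0675 to 0.112), and Icam1 between the classes was not called without CT2A replicate 2 (1.32, edgeR adjusted p = 0.0542). In CT2A, Icam1 stood just short of the threshold (1.39 ± 0.53, edgeR adjusted p = 0.0557) and was called without 005 replicate 2 or 3 or Mut3 replicate 1 or 3 (edgeR adjusted p = 0.0381 to 0.0462). Vcam1 in CT2A and Icam1 in GL261 were called in each of the fits that left out a replicate. With Cdh5 alone as the scale, 3 of the calls were lost and 1 other was made. Since tumor, myeloid and glial cells can also make these molecules, the scaling does not assign the RNA to endothelium.

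On the leukocyte side the scale changed more. With the mean log2 CPM of the 11 pan-leukocyte genes made equal, 5 calls were made over Selplg, Itgb2 and Itgam in the 5 comparisons, against 11 on the TMM scale. On this scale most other genes are lower in the tumors with more leukocyte RNA: 45.2% of all genes were called lower in CT2A and 60.3% in GL261, 68.8% in 005 and 13.9% in Mut3. Selplg was lower than in naïve brain in all 4 tumors, by -1.97 ± 0.51 in CT2A (edgeR adjusted p = 0.00468), -1.60 ± 0.51 in GL261 (edgeR adjusted p = 0.0111), -1.61 ± 0.50 in 005 (edgeR adjusted p = 0.00923) and -1.84 ± 0.52 in Mut3 (edgeR adjusted p = 0.0127). Itgb2 was not called in any tumor (0.70 to 1.12), and Itgam was called in Mut3 alone (-1.45 ± 0.50, edgeR adjusted p = 0.0354). The scale includes Coro1a, which was itself called lower in Mut3 (-3.14 on the TMM scale). Between the classes none of the 3 was called, where 59.8% of all genes were: Selplg differed by 0.30, Itgb2 by 0.33 and Itgam by 0.18, with edgeR adjusted p of 0.391 to 0.654, and at an unadjusted p under 0.05 the count was 0 as well.

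The calls on the leukocyte scale changed most without naïve replicate 2. Without it 3 calls were made in place of 5: Selplg was not called in GL261 (-1.16, edgeR adjusted p = 0.0735), 005 (-1.17, edgeR adjusted p = 0.0648) or Mut3 (-1.39, edgeR adjusted p = 0.0702), and Itgb2 was called higher in GL261 (1.54, edgeR adjusted p = 0.0272) and 005 (1.40, edgeR adjusted p = 0.0359). Selplg in Mut3 was also not called without Mut3 replicate 1 (edgeR adjusted p = 0.0518). Itgb2 in GL261 was called without 005 replicate 1 or 2 or Mut3 replicate 1 (edgeR adjusted p = 0.0280 to 0.0450). The Itgam call in Mut3 was lost without naïve replicate 2 or 3, any CT2A replicate, GL261 replicate 2 or 3, or Mut3 replicate 1 or 3 (edgeR adjusted p = 0.0505 to 0.111). With Ptprc alone as the scale, Itgb2 had the opposite sign in all 5 comparisons (-0.28 to -1.72) and was not called. On that scale Itgam was also called lower than naïve brain in CT2A, GL261 and 005, and 1 of the 5 calls was lost.

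**Figure D2:**
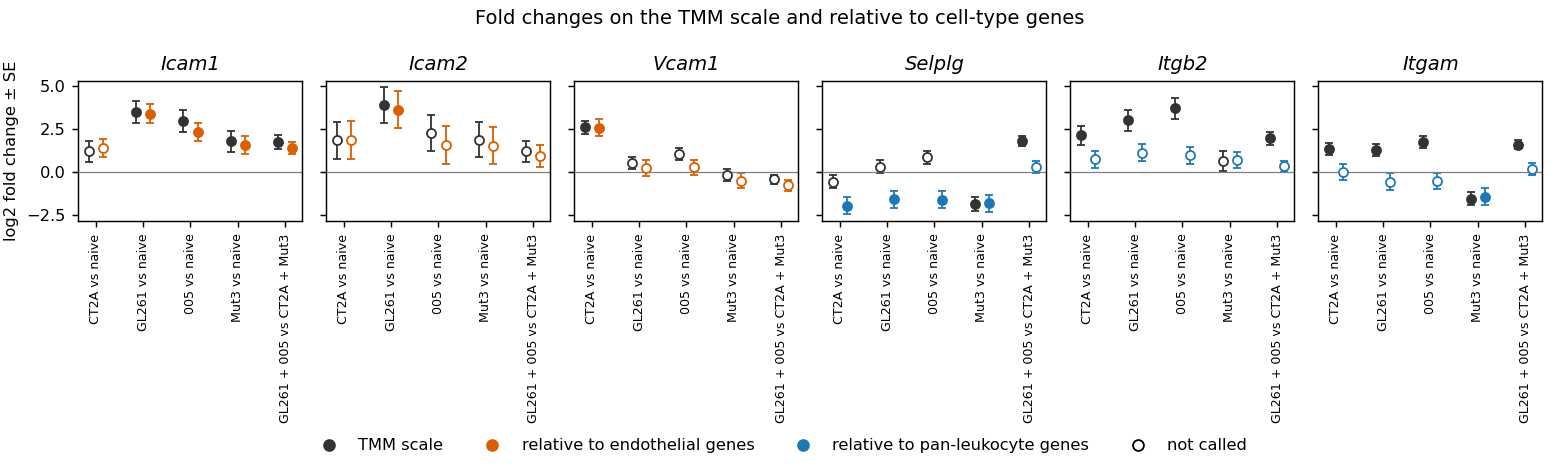
Log2 fold change with its SE (y axis) of the 6 tested genes in 5 comparisons (x axis) on the TMM scale (dark) and relative to the endothelial genes (orange) or the pan-leukocyte genes (blue); filled points were called and open points were not. Vcam1 in CT2A was 2.61 on the TMM scale and 2.59 on the endothelial scale, and Selplg lay between -1.97 and -1.60 in all 4 tumors on the leukocyte scale.

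Ratios of 2 genes within a sample do not depend on the scaling of the library. These ratios, in TPM (a level per gene length), were chosen after the values had been seen, so they are given with no test. Icam1 over Vcam1 was 0.16 to 0.231 in CT2A, 2.96 to 5.19 in GL261, 1.24 to 2.23 in 005, 0.527 to 3.48 in Mut3 and 0.264 to 0.942 in naïve brain. No CT2A sample overlapped any other group. On the log2 scale the mean ratio of GL261 and 005 was 2.20 above that of CT2A and Mut3.

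The ratio of Selplg over Itgb2 was 10, 14.6 and 19.6 in naïve brain and 1.39 to 4.04 in the 12 tumors. The log2 ratio was lower in the tumors by a mean difference of -2.57, and the range of this difference with each sample left out was -2.82 to -2.34. Itgam over Itgb2 was 0.557 to 1.36 in naïve brain and 0.126 to 0.580 in the tumors (log2 difference -1.57), and without naïve replicate 3 the difference was -1.24.

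**Figure D3:**
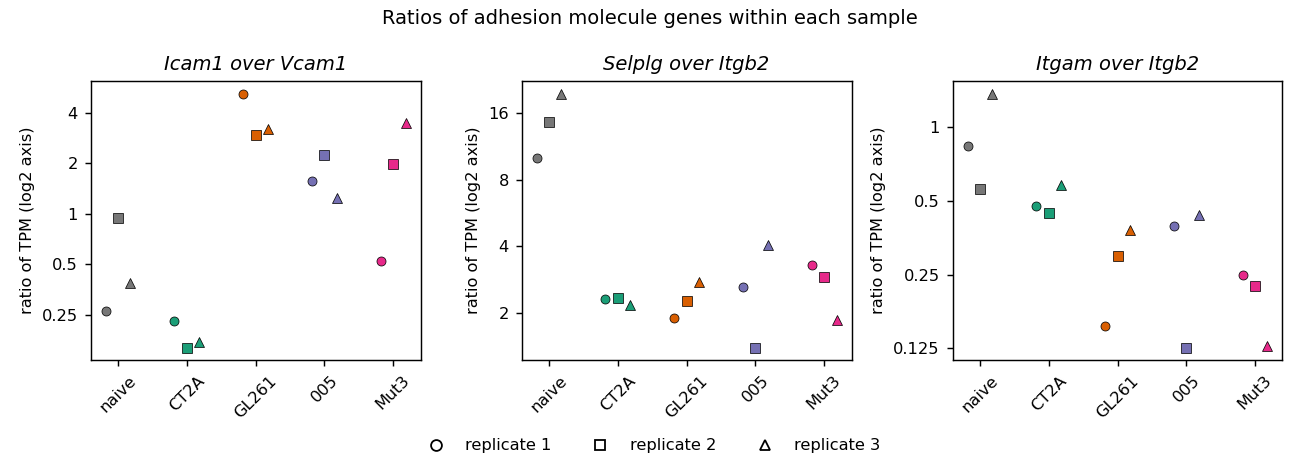
Ratios of TPM within each of the 15 samples (y axis, log2 scale) for Icam1 over Vcam1, Selplg over Itgb2 and Itgam over Itgb2, by group (x axis), with a symbol for each replicate number. The CT2A samples lay lowest for Icam1 over Vcam1 (0.16 to 0.231), and the 3 naïve samples lay above all 12 tumors for Selplg over Itgb2.

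CD18 pairs with 4 alpha chains, CD11a (Itgal, the LFA-1 chain of lymphocytes and most leukocytes), CD11b (Itgam), CD11c (Itgax, of dendritic cells and macrophages) and CD11d (Itgad). Of their summed TPM, naïve brain had 55.8 ± 29.1% as Itgam and CT2A had 64.7 ± 15% (SD, n = 3). The share was 28.8 ± 9.63% for GL261, 34.8 ± 12.3% for 005 and 31.9 ± 4.91% for Mut3. This share did not pass the test among the 5 groups (exact permutation test over 1401400 divisions, p = 0.0734) and differed among the 4 tumors (exact permutation p = 0.0152). As a share of summed CPM it passed among the 5 groups (exact permutation p = 0.00794) and not among the 4 tumors (exact permutation p = 0.0595). Itgad had at most 2.69 CPM and few counts, yet up to 2.08 TPM. Without Itgad the share of Itgam was 85.6 ± 3.32% in naïve brain, 73.6 ± 8.56% in CT2A and 49.7 ± 10.4% in GL261, 41.9 ± 19.8% in 005 and 38.4 ± 10.5% in Mut3 (exact permutation p = 0.00278 among the 5 groups and 0.0455 among the 4 tumors).

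The other alpha chains filled the rest. Itgal was 0 to 1.08 CPM in naïve brain, 1.55 to 5.74 in CT2A and 3.88 to 10.6 in GL261, 5.77 to 58.1 in 005 and 2.24 to 2.46 in Mut3, and was called higher than naïve brain in CT2A (2.85 ± 1.07, edgeR adjusted p = 0.0440), GL261 (4.00 ± 1.06, edgeR adjusted p = 0.0165) and 005 (5.90 ± 1.07, edgeR adjusted p = 0.00317). Itgax was called in CT2A (2.17, edgeR adjusted p = 0.0385), GL261 (3.90 ± 0.78, edgeR adjusted p = 0.00376) and 005 (4.92 ± 0.80, edgeR adjusted p = 0.00199). In Mut3, where Itgam fell, Itgal took 35.4 to 53.2% of the summed TPM of Itgam, Itgal and Itgax, against 0 to 11.7% in naïve brain.

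**Figure D4:**
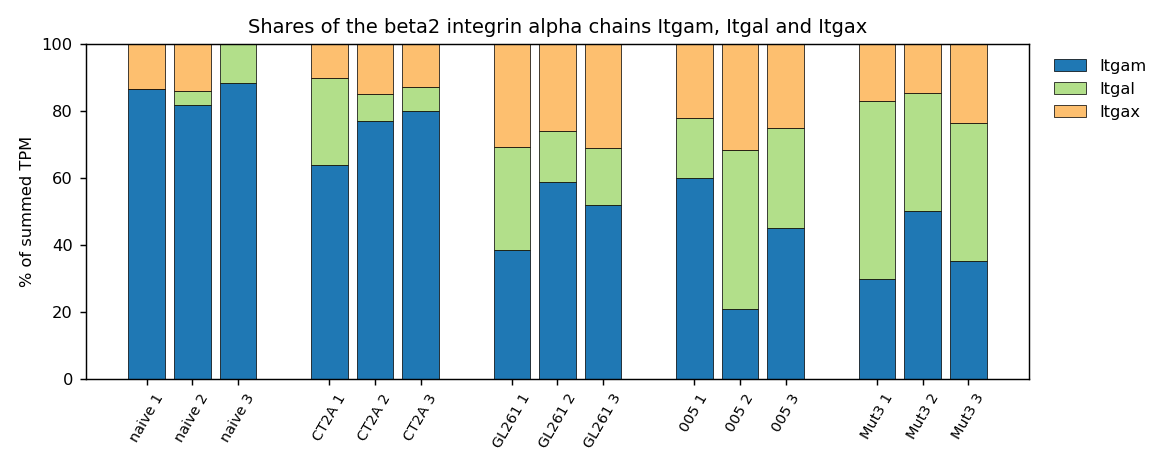
Share of Itgam, Itgal and Itgax in the summed TPM of these 3 beta2 integrin alpha chains (y axis, percent) in each sample (x axis). Itgam made up 81.9 to 88.3% in naïve brain and 20.8 to 79.9% in the tumors.

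Genes of the same pathway were read from lists, and their counts stand beside 19.0% of all genes called higher in CT2A, 14.6% in GL261, 11.6% in 005, 17.9% in Mut3 and 12.6% between the classes. In either direction, 39.2% of all genes were called in CT2A, 22.4% in GL261, 12.7% in 005, 37.8% in Mut3 and 16.9% between the classes. Counts called lower are read against these shares, and in Mut3 19.8% of all genes were called lower. Of the other leukocyte integrin subunits, 4 of the 7 tested of 8 were called higher in CT2A and 3 in GL261, 5 in 005 and 2 in Mut3, and none lower, with a median log2 fold change of 2.17, 1.86, 2.96 and 0.94. Besides Itgal and Itgax, Itgb1 (the beta1 chain of many cell types) was higher by 1.92 (005) to 2.60 (CT2A) in all 4 tumors, and Itgb7 by 3.77 in 005. Among 10 genes that act in integrin activation, all tested, 6 were higher and 1 lower in CT2A and 5 were higher in GL261, 4 in 005 and 2 in Mut3, where 1 was lower. Fermt3, the kindlin of blood cells that integrin adhesion needs, rose by 2.22 in CT2A, 3.22 in GL261 and 3.03 in 005, and Skap2, an adaptor of myeloid cells, by 2.69 (GL261) to 4.13 (Mut3) in all 4 tumors. Skap1, its T cell counterpart, was lower in Mut3 (-3.45 ± 0.89, edgeR adjusted p = 0.00730).

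Of 16 genes that act in selectin binding, mostly ligands and the enzymes that decorate them, 13 were tested, and 3 were higher in CT2A and 2 in GL261, 4 in 005 and 2 in Mut3, with none lower and a median between -0.13 and 1.16, so that the counts in CT2A, GL261 and Mut3 were near the share of all genes. Cd44, an adhesion receptor that also carries E-selectin ligands, was higher in all 4 tumors, by 4.88 in CT2A and 3.21 in GL261, 4.24 in 005 and 2.21 in Mut3, and Spn (CD43) by 4.44 in CT2A and 5.66 in 005. None of the 13 was called between the classes in edgeR, and 6 had an unadjusted p under 0.05. Of 14 further endothelial and adhesion molecules, 13 were tested. None was higher and 5 were lower in CT2A and 4 were higher and 2 lower in GL261, 2 were higher and none lower in 005, and 3 were higher and 5 lower in Mut3. Glycam1, a secreted mucin, was 11.5 to 95.3 CPM in 005 and 0.249 to 1.08 in naïve brain (6.18 ± 0.91 on the log2 scale, edgeR adjusted p = 0.00180), and was higher in GL261 by 3.05. Cx3cl1 (fractalkine) and Icam5, which neurons make, were lower in Mut3 (-5.47 and -6.02) and CT2A (-3.13 and -3.78), and Cx3cl1 in GL261 (-2.93). In Mut3 and CT2A all 6 neuronal genes were called lower too.

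Of 12 tested of 14 (TNF, IL-1 and lymphotoxin ligands, their receptors and NF-kB members), 6 were higher in CT2A and 4 in GL261, 4 in 005 and 2 in Mut3, and 2 between the classes, with none lower and a median of 1.62, 1.44, 1.85, 0.19 and 0.70. The counts in Mut3 and between the classes were near the share of all genes. Tnfrsf1a, the main TNF receptor, was higher in all 4 tumors, by 1.77 in Mut3 to 2.97 in 005. Il1r1 rose by 3.12 in CT2A, and Nfkb2 by 3.49 there, 2.64 in GL261 and 3.04 in 005. Between tumors, Il1r1 in CT2A was not called above GL261 (1.77, edgeR adjusted p = 0.076) or 005 (1.33, edgeR adjusted p = 0.169). Il1a was higher by 2.28 in GL261, and by 2.07 between the classes.

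Markers of blood and brain cell types were counted in the same way. Monocyte and macrophage genes were called higher for 6 of 9 in CT2A and 8 in GL261, 8 in 005 and 2 in Mut3, and Ms4a7 rose in all 4 (4.67, 4.73, 5.17 and 3.38). T cell genes were higher for 4 of the 6 tested in CT2A, 5 in GL261 and 5 in 005, and for none in Mut3, and Cd4 was lower in Mut3 (-2.91) and CT2A (-2.76). Of the 5 tested neutrophil genes, none was called in CT2A by edgeR (1 had an unadjusted p under 0.05), 2 were higher in GL261, 3 in 005 (Retnlg by 6.31) and 1 in Mut3. B cell genes, with 2 tested, were both higher in 005, and 1 of the 3 tested NK cell genes, Klrk1, was higher in CT2A, GL261 and 005. Of the endothelial genes, Emcn, a sialomucin of capillaries and veins, was higher in all 4 tumors (1.28 to 1.77), and 10 or 11 of the 12 were not called in each. Of 6 pericyte genes, 2 were higher in CT2A, in 005 and in Mut3 and none in GL261, and of 3 tested platelet genes Pf4 was higher in CT2A and 005, and Gp1bb lower in CT2A (-3.90), GL261 (-2.68) and Mut3 (-4.28). Astrocyte genes were lower for 3 of 5 in CT2A and 2 in Mut3, while Gfap, of the same list, was higher in GL261 (2.56) and Mut3 (2.57). Oligodendrocyte genes were lower for 1 of 4 in CT2A and all 4 in Mut3. Of the 4 choroid plexus genes, edgeR called none in the 5 comparisons, and 2 had an unadjusted p under 0.05, both between the classes.

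Across the 15 samples, each gene had its own nearest neighbours in log2 CPM (Pearson r, prior count 2, over 13656 genes with a mean of at least 1). The samples share groups and leukocyte content, so these values describe the pattern. Icam1 was most like the MHC class II genes H2-DMb1 (0.967), H2-Aa (0.963) and H2-Ab1 (0.961). Icam2 was most like the interferon-induced GTPase Igtp (0.927), Gm2768 (0.916) and Ifi35 (0.903), and Vcam1 like the matrix genes Col5a2 (0.946), Col8a1 (0.929) and P4ha1 (0.919). Itgb2 was nearest to AW112010 (0.990) and the complement genes C1qc (0.989) and C1qb (0.979). Selplg was nearest to Trbc2 (0.970), Skap1 (0.941) and Ppfia4 (0.930), and Itgam to Blnk (0.941), Vps26a (0.930) and Clec4a3 (0.924). Among themselves, Icam1 was closest to Itgb2 (0.86) and Icam2 (0.82), Selplg to Itgam (0.82), and Vcam1 had r of 0.10 with Icam1 and 0.63 with Itgam, its closest.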

How the data were processed

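Whole-tissue RNA of 15 samples (5 groups of 3 mice, grouped and numbered by the sample labels) was analysed. The authors used STAR 2.4.2a and the GENCODE mouse genome for alignment, with Picard for duplicates and RNA-SeQC for metrics. The submitters' processing notes also name Salmon, DESeq2 1.18.1 and mm10, with no role given. The authors deposited expected counts per gene, which are estimates with no normalization between samples, and TPM values, which are scaled per gene length and per sample; both tables come from the same reads and are not independent measurements. The members and gene lists were chosen with earlier results of these data known, and are described with no test over a list.

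Rounded expected counts were tested by edgeR 4.0.16 in R 4.3.3 (filterByExpr, TMM, quasi-likelihood test, all 15 samples with a mean per group and no covariate, Benjamini-Hochberg adjustment over 17481 genes). For the scales of endothelial and pan-leukocyte genes, effective library sizes were set so that the mean log2 CPM (prior count 2) of the list was equal in all samples. Shares of TPM were tested by exact permutation (two-sided), and 3 ratios of TPM, chosen after their values were seen, are described with no test. From each list, up to 3 called genes with the largest absolute log2 fold change and a log2 CPM that averaged 1 or more where it was higher could be named, besides Itgal, Itgax, Itgad and the 3 genes most like each member. The labels name no litter or batch. The edgeR p-values rest on the spread between mice within groups, estimated over all samples of the fit. Between the classes they do not measure the spread between lines. The alternatives were DESeq2 1.42.0, limma 3.58.1 on log2(TPM + 1) and log2(TPM + 0.1), other filters and scalings, a replicate block, fits of only the samples compared, and each replicate left out. Of these steps, only the edgeR fit of GL261 against naïve brain was tried on simulated counts with known changes. Replicates of a group differed by more than sampling noise (chi-square per degree of freedom 14.1 to 257.9). RefSeq promoters were matched for 4 of the 8 genes. Depth was 3105119 to 13130158 counts per sample. Staining and cytometry data were not analysed here, and some items are not reported here.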

Additional observations from a re-analysis of the deposited data

Results flagged for a closer look

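In the 6 samples of GL261 and 005, 005 replicate 2 stood apart for Vcam1 (107 CPM, next 52.4, a gap of 0.833 of the whole range) and Itgb2 (129 CPM, next 54.1, a gap of 0.745). In the 6 samples of CT2A and Mut3, CT2A replicate 2 stood apart for Sele (1.09 CPM, next 0.388, a gap of 0.644), a value that rests on 6.82 counts. The limit was 0.625 for 6 samples. These are 3 of 16 combinations of a gene and a class. The limit belongs to a chance rate of about 1 in 20 for 6 values of a single group. Each class here pools lines that differ, and the combinations share samples, so that rate does not apply to these flags. 005 replicate 2 also had the most Ptprc (260.6 CPM, next 85.6).

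Lines differed in their effects against naïve brain, by the edgeR test of 1 tumor against another, in 13 cases. By pair, 2.62% (GL261 against 005) to 19.8% (005 against Mut3) of all genes were called. CT2A minus GL261 was -2.29 (log2) for Icam1 and 2.09 for Vcam1, and CT2A minus 005 was 1.55 for Vcam1. CT2A minus Mut3 was 2.78 for Vcam1, 1.32 for Selplg and 2.92 for Itgam. GL261 minus Mut3 was 2.19 for Selplg, 2.36 for Itgb2 and 2.83 for Itgam, and 005 minus Mut3 was 1.23 for Vcam1, 2.73 for Selplg, 3.05 for Itgb2 and 3.30 for Itgam. Some calls were lost when certain single replicates were left out. They were Icam1 in CT2A minus GL261, Vcam1 in CT2A minus 005 and in 005 minus Mut3, and Selplg in CT2A minus Mut3.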

How the results depend on the processing

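The naïve libraries had the fewest counts, and Icam2, Sele and Selp were close to the floor in them. The counts of called genes against naïve brain, between the classes and over pairs of tumors kept within 1.5 times under DESeq2, library size, both filters, adjusted p alone and log2(TPM + 0.1). The exceptions were 1 call in Mut3 on log2(TPM + 1) and 1 in 005 with only the samples compared. With a replicate left out the calls ranged from 2 (without naïve replicate 1) to 4 in GL261, on the leukocyte scale from 3 (without naïve replicate 2) to 6 and on the endothelial scale from 4 (without naïve replicate 1) to 7. These counts include Selp, which then passed the filter and was called between the classes without naïve replicate 1 (3.61 on the endothelial scale, edgeR adjusted p = 0.0414), so that 3 of the 6 calls were lost there. Without scaling to leukocyte genes 11 calls were made. The share of Itgam among alpha chains passed the test among the 5 groups by summed CPM (exact p = 0.00794) and without Itgad (exact p = 0.00278).

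Signs turned for differences that had not been called, and also for Selplg in GL261 and 005 on the leukocyte scale, which had. Itgam in CT2A minus GL261 was -0.05 by library size and on log2(TPM + 1) and -0.08 on log2(TPM + 0.1). Icam2 in CT2A minus Mut3 was 0.17 with the replicate block and 0.25 on log2(TPM + 0.1). On log2(TPM + 1) and log2(TPM + 0.1), Vcam1 in GL261 was -0.19 and -0.27, Selplg in GL261 was -0.42 and -0.45, and Itgb2 in Mut3 was -0.12 and -0.26. With Cdh5 as the scale Vcam1 in 005 was -0.10. With Ptprc as the scale Itgb2 was -1.42 in CT2A, -1.43 in GL261, -1.72 in 005, -0.28 in Mut3 and -0.72 between the classes, Selplg -0.70 and Itgam -0.78 between the classes. Without scaling to leukocyte genes Itgam was 1.36 in CT2A, 1.27 in GL261 and 1.74 in 005, and Selplg 0.31 in GL261 and 0.85 in 005. The cause of these changes was not tested.

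With a replicate left out, sign changes gave these ranges: relative to endothelial genes, Vcam1 from -0.09 to 0.46 in GL261 and from -0.07 to 0.49 in 005, and Icam2 from -0.12 to 3.14 in Mut3; relative to leukocyte genes, Itgam from -0.17 to 0.15 in CT2A; between tumors, Itgam from -0.10 to 0.29 in CT2A minus GL261, Icam1 from -0.93 to 0.03 in CT2A minus Mut3, Icam2 from -0.53 to 1.58 in CT2A minus Mut3 and from -0.12 to 1.99 in 005 minus Mut3, and Itgb2 from -1.06 to 0.37 in GL261 minus 005. The Itgam share of tumors minus naïve brain ranged from -27.6 to 0.564 percentage points, the latter without naïve replicate 3.

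No pairing of mice by replicate number was seen. The correlation of deviations was -0.33 to 0.26 over 30 pairs with the same number and -0.42 to 0.48 over 60 pairs with different numbers. With the replicate block, Vcam1 was no longer called in CT2A minus 005 (adjusted p = 0.0596) or 005 minus Mut3 (adjusted p = 0.0554), Icam1 was called in GL261 minus Mut3 (adjusted p = 0.0479), and with the block on the list scales Icam1 (1.48, adjusted p = 0.0540) and Itgam (-1.44, adjusted p = 0.0575) in Mut3 were lost, and Itgam in CT2A was 0.00 with the sign turned.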
